A study of Homo sapiens with 8 samples.

Results

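The comparison described here sets HepG2 cells held for 12 h in serum-free medium against HepG2 cells held for 4 h in it. HepG2 is an established human hepatocellular carcinoma line. Its members were found from the sample titles: the 2 arrays labelled 12 h and the 2 labelled 4 h, which are 4 of the 8 arrays of the series. Each time holds 1 control array (serum-free medium alone) and 1 quercetin array (serum-free medium with 3 µM quercetin, a plant flavonol), and treatment was kept as a block. All 4 cultures had been starved of serum beforehand, so 12 against 4 h compares 2 points of a continued starvation, with no culture in serum beside them. The other 4 arrays, control and quercetin at 2 h and at 24 h, entered the estimate of the spread but not the differences. Total RNA was measured on Affymetrix arrays, and all values are log2 expression. A difference of 1 is a 2-fold change.

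Serum supplies growth factors and insulin-like signals. When these are withdrawn, the AKT kinase is less active and FOXO transcription factors enter the nucleus, where they switch on genes of cell-cycle exit, fasting metabolism and receptor feedback. Cells leaving or re-entering the cycle change the mitotic genes, which are repressed through a promoter element called CHR by the DREAM complex. Oxygen supply is read by HIF transcription factors, whose targets include glycolytic enzymes and the oxygen-sensing hydroxylases themselves.

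The signals of the arrays themselves differed between the times. The 3 probe sets for 18S ribosomal RNA had mean signals of 11.52 (control) and 11.62 (quercetin) at 4 h against 7.35 and 7.29 at 12 h, a difference of -4.26. Hybridisation spike-in transcripts, added during the Affymetrix protocol, had mean signals of 12.00 and 11.94 at 4 h against 11.19 and 11.35 at 12 h. By this signal both 12 h arrays fall in a low class and both 4 h arrays in a high class. At 2 h the arrays lay in different classes, the control low (11.24) and the quercetin array high (12.11). The 3' minus 5' difference of ACTB, a sign of RNA integrity, was 1.12 and 1.17 at 4 h against 1.40 and 0.88 at 12 h, which overlap. Beside the 12 h against 4 h differences, the control minus quercetin difference at 2 h is therefore given, which sets a low-class against a high-class array at 1 time and also holds the quercetin difference and 2 separate cultures. Time and array class cannot be told apart in the 4 arrays of 4 and 12 h.

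**Figure D1:**
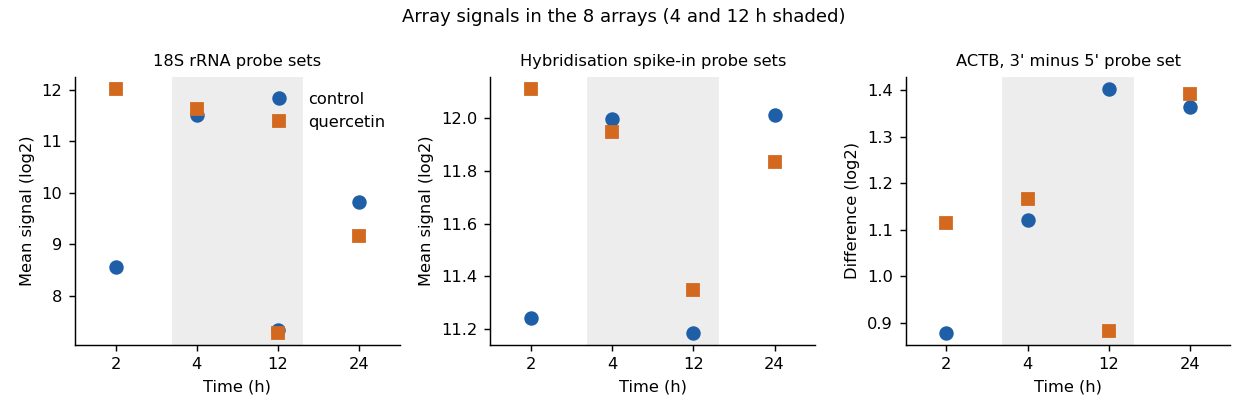
Mean log2 signal of the 18S rRNA probe sets (left) and the hybridisation spike-in probe sets (middle), and the 3' minus 5' difference of ACTB (right), in each of the 8 arrays by time in hours. Circles are control arrays and squares quercetin arrays; the 4 and 12 h arrays lie close together within each time for 18S and spike-in signal and apart between the times, and the ACTB differences of the times overlap.

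The cells carried defining liver transcripts at both times. The 12 tested hepatocyte markers had a mean level of 14.15 in control and 14.15 in quercetin at 4 h and 14.06 and 14.17 at 12 h, and 0 of 12 were called. Markers of other cell types were tested where they passed the level cutoff, which 7 of 13 leukocyte, 8 of 12 fibroblast, 3 of 10 endothelial and 9 of 13 other epithelial markers with a probe set did. Their mean levels in the 4 arrays lay between 8.75 and 9.09 for leukocytes, 8.80 and 8.95 for fibroblasts, 8.85 and 9.20 for endothelium and 9.51 and 9.63 for other epithelia, and levels of different probe sets cannot be set against each other. Of these 27 markers of other types 1 was called, PDGFRB, the receptor for platelet-derived growth factor, which fell by 0.65 ± 0.20 (SE). Their part in the results was not tested. In bulk RNA, fewer cells of a kind and less RNA per cell cannot be told apart.

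At 12 h, genes of mitosis, of the hypoxia response, of cell-cycle exit and protein folding were among those higher than at 4 h in both arms. A smaller group was lower. Its largest falls, in RPL27A and RPLP2, had 2 h differences of the same sign. Smaller falls included the signalling inhibitors FST and TNFAIP3. Their 2 h differences ran the opposite way, as in 19 of the 129 genes called lower. Of 13298 genes tested, 1001 (7.53%) were called at a limma adjusted p under 0.05, 872 (6.56%) higher and 129 (0.97%) lower at 12 h, so that 87.1% of the calls were higher. That share was 94.0% with median centring, 72.6% with cyclic loess and 70.3% with quantile normalization of the values, and it was 55.3% without the quercetin array of 12 h (121 higher and 98 lower). The median difference over all genes tested was 0.03, and it was 0.11 with median centring, -0.02 with cyclic loess and -0.03 with quantile normalization. The calls rest on the mean of both arms, which favours genes that moved the same way in each: all 1001 had the same sign in both arms, and in 998 the 4 h and 12 h arrays did not overlap. Over all genes tested both 12 h arrays lay above both 4 h arrays for 34.6% and below them for 25.6%. A change of at least 2-fold in each arm, which has no test because it sets 1 array against 1 array, was found for 54 genes (0.406%), 42 upward (0.316%) and 12 downward (0.0902%).

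Each treatment and time had 1 array, and nothing in the labels names replicate cultures. The p-values therefore measure how well the arms and times hold to a common pattern, not the spread between replicate cultures, and 8 arrays limit the precision. The count of calls depended on single arrays: it was 37 without the control array of 4 h, 219 without the quercetin array of 12 h, 581 without the quercetin array of 4 h and 1046 without the control array of 12 h. Of the 86 called genes that the naming rule picked, 19 were called whichever of the 4 arrays was left out: CCNG2, SLCO4C1, FAM13A, ETNK1, BMPR2, RORA, KDM3A, SMIM3, CHST9, PFKFB4, PCK1, HERC4, PDK1, EGLN1 and YPEL2 among the rises and RPL27A, RNA45SN5, B4GALT1 and CALR among the falls. With array class as an added term, which only the 2 h arrays can set apart from time, limma called 0 genes. At an unadjusted p under 0.05 that fit passed 418 genes, its lowest adjusted p was 0.214, and the median SE rose from 0.188 to 0.349. The differences kept their sign in 937 of the 1001 (93.6%) and were at least 0.5 in size with that sign in 320.

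The 2 h arrays show how much of this pattern also appeared between classes at 1 time. Over all genes, the correlation of the 12 h minus 4 h difference with the control minus quercetin difference at 2 h was 0.668, a description over genes, which are not independent replicates. Of the 1001 called genes, 958 (95.7%) had the same sign in both, against 76.4% of all genes tested. In 588 the 2 h difference reached at least 50% of the 12 h minus 4 h difference. In 154 (15.4%), 123 of them higher and 31 lower, it was under 25% of it, and in 43 it ran the opposite way. The role of array class in the calls was not tested beyond these values, so the 2 h difference is given beside many of the genes named below.

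**Figure D2:**
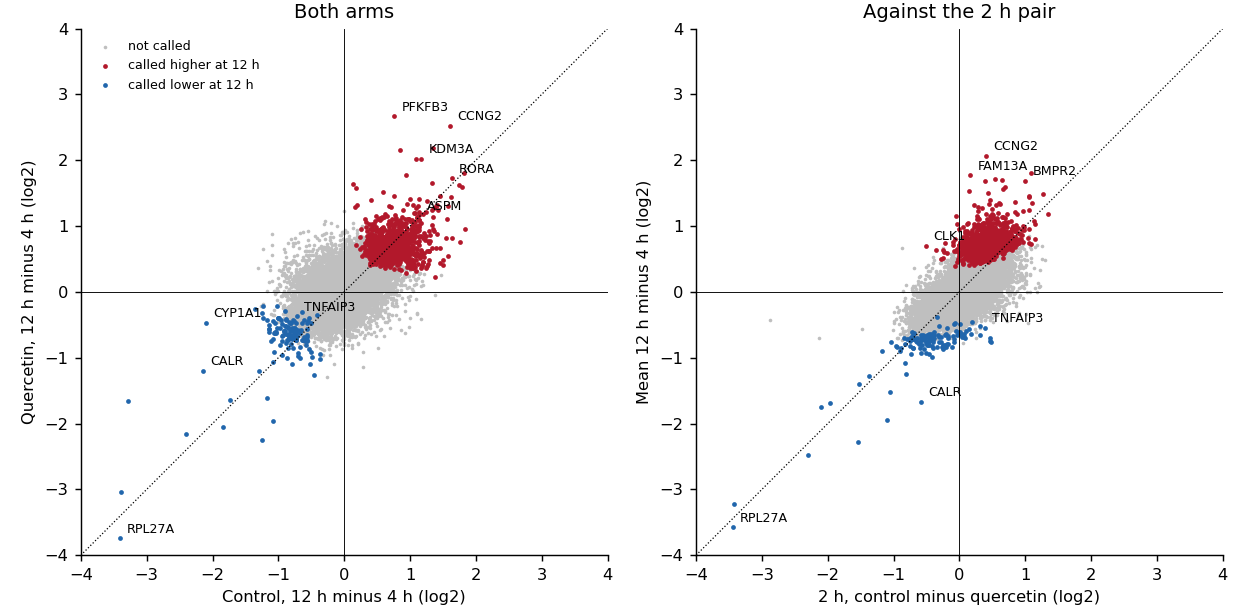
Left, log2 difference 12 h minus 4 h in quercetin against that in control for the 13298 genes tested. Right, mean 12 h minus 4 h difference against the control minus quercetin difference at 2 h. Red and blue points are the 872 genes called higher and the 129 called lower, grey points were not called, and the dotted line marks equality; called genes lie in the same-sign quadrants at left, and most also do at right.

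Of the lists plotted by median, the mitotic genes stood at the top and the targets of TGF-beta and BMP at the bottom. The median difference of the 46 mitotic genes tested was 0.47, beside 0.03 for all genes. Proteasome genes had 0.29, heat shock genes 0.25, splicing genes 0.24, G1/S and replication genes 0.22, and glycolysis and hypoxia genes 0.20. At the other end, TGF-beta and BMP targets had -0.24 and NF-kB and inflammation genes -0.11. None of these medians changed sign with median centring, cyclic loess or quantile normalization. The arms were not always alike: the NF-kB and inflammation median was -0.26 in control and 0.04 in quercetin. For heat shock genes the arms had 0.01 and 0.33, and for TGF-beta and BMP targets -0.33 and -0.07. The other list medians named here were positive in both arms, with 0.43 and 0.49 for mitotic genes. With array class as a term the medians were 0.26 for mitotic genes, 0.15 for the proteasome, 0.07 for heat shock and splicing genes, 0.06 for G1/S and -0.08 for glycolysis and hypoxia genes. Of the 46 lists used, 13 had 0 members called.

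**Figure D3:**
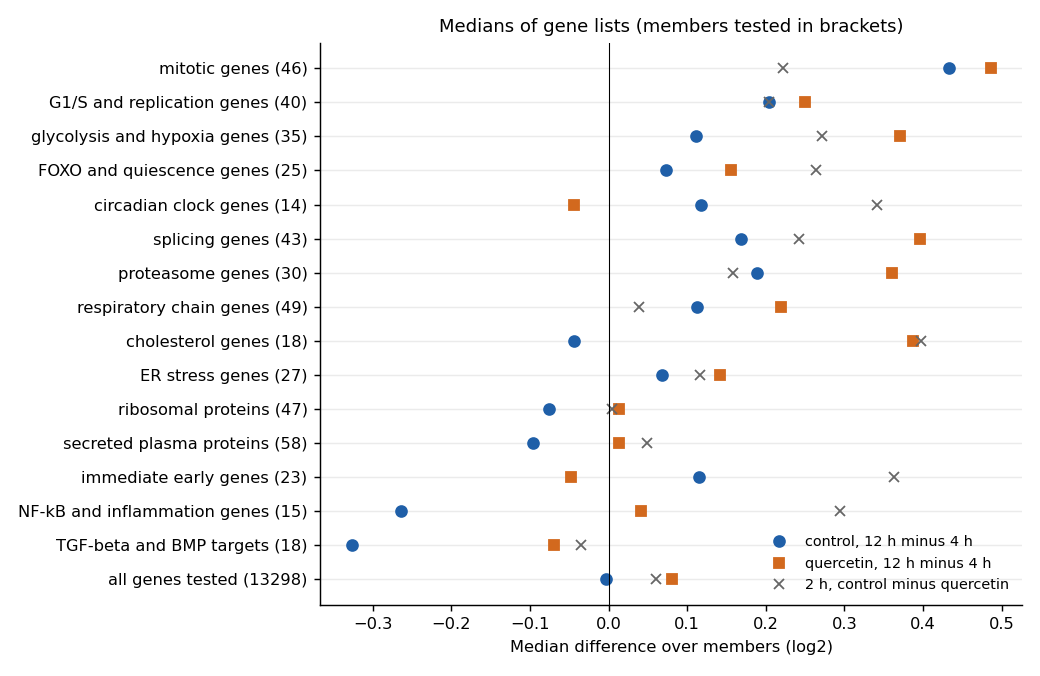
Median log2 difference of each gene list, with the number of members tested in brackets: circles give 12 h minus 4 h in control, squares the same in quercetin, and crosses control minus quercetin at 2 h. The mitotic genes have medians above 0.4 in both arms and the TGF-beta and BMP targets are below 0 in both, while several lists, such as the cholesterol genes, have medians of opposite sign in the arms.

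Part of the mitotic genes rose at 12 h. Of 46 tested, 19 rose (41.3%, against 6.56% of all genes), 0 fell and 27 were not called. A positive difference was found in 44, against 7111 of all 13298 genes. In 42 (91.3%, against 34.6% of all genes) both 12 h arrays lay above both 4 h arrays. No mitotic gene was called without the control array of 4 h, 5 were without the quercetin array of 12 h, 7 without the quercetin array of 4 h and 19 without the control array of 12 h. At 2 h the same list had a median control minus quercetin difference of 0.22. Mitotic genes share a short promoter element, the cell cycle genes homology region (CHR), at which the DREAM complex binds in resting cells. The letters TTTGAA or TTCGAA, on either strand, were searched in RefSeq windows of 300 bases (250 before to 50 after each start, GRCh38.p14). They were present for 29 of the 39 mitotic genes that have a window (74.4%) and for 16 of 18 called ones, against 19.5% of 27305 genes, 16.4% of all 35116 windows and 15.6% of the genes tested. A match is a description of the letters, not a bound site. The windows of 3 of the called genes are shown because they carry this element, as capitals:
ASPM: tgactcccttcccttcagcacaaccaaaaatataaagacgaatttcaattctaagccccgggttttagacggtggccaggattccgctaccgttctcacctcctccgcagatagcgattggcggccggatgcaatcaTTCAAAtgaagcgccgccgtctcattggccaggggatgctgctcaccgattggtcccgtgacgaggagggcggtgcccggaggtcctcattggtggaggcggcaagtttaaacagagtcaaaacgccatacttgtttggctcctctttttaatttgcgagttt
SPC25: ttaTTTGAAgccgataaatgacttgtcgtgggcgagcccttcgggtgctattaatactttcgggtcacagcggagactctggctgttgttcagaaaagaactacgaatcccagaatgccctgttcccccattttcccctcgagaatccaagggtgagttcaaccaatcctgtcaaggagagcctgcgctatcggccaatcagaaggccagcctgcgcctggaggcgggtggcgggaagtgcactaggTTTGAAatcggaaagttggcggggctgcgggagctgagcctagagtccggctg
NUF2: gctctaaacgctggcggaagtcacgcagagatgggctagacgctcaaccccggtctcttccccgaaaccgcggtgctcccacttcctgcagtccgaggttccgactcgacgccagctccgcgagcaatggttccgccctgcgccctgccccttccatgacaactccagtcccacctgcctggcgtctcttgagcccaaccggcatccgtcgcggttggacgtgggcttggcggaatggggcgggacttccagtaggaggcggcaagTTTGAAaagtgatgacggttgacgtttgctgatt
The ASPM window is chr1:197146620-197146919 on the minus strand, that of SPC25 chr2:168890381-168890680 on the minus strand, and that of NUF2 chr1:163321704-163322003 on the plus strand. The ASPM element lies on the opposite strand and so reads TTCAAA.

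ASPM, a spindle pole protein, had levels of 9.69 (control) and 9.83 (quercetin) at 4 h against 10.83 and 10.996 at 12 h. Both 12 h arrays were above both 4 h arrays, as were the 24 h arrays at 11.42 and 11.34. Its difference was 1.15 ± 0.17 (SE; adjusted p = 0.000801), a 2.23-fold rise, beside a 2 h difference of 0.47. ECT2, the exchange factor that starts cytokinesis, went from 9.70 and 9.72 to 10.71 and 10.61, a difference of 0.95 ± 0.18 (adjusted p = 0.00371). ANLN, which encodes the contractile ring scaffold anillin, went from 10.10 and 9.86 to 10.93 and 10.86, a difference of 0.92 ± 0.17 (adjusted p = 0.00414). For each of these genes the arms agreed within 0.2, and the 2 h differences were 0.62 for ECT2 and 0.55 for ANLN.

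The kinetochore genes moved alike. SPC25, a subunit of the NDC80 complex that joins chromosomes to microtubules, had 9.15 and 9.18 at 4 h against 9.82 and 10.21 at 12 h, a difference of 0.85 ± 0.20 (adjusted p = 0.0145). Its partner NUF2 had 9.27 and 8.96 at 4 h against 10.01 and 9.86 at 12 h, a difference of 0.82 ± 0.17 (adjusted p = 0.00783). NDC80 itself rose by 0.75 ± 0.18 (adjusted p = 0.0167). The groups did not overlap for any of these genes. Cyclin A2 (CCNA2), which drives S phase and mitotic entry, had 10.37 and 10.44 at 4 h, then 11.12 and 11.34 at 12 h, then 10.80 and 10.75 at 24 h, a difference of 0.83 ± 0.17 (adjusted p = 0.00613). KIF14, a kinesin of the midbody, rose by 0.57 in control and by 1.12 in quercetin, a mean of 0.85 ± 0.23 (adjusted p = 0.0304), with a 2 h difference of 0.80.

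The other called mitotic genes differed by 0.48 to 0.76; like NUF2 and NDC80 they were named after their values were seen. They were the kinesins KIF11, KIF23 and KIF4A, the checkpoint kinases BUB1 and TTK, the checkpoint protein MAD2L1, the kinases CDK1 and NEK2, the phosphatase CDC25C, and the spindle proteins NUSAP1 and PRC1. In 3 of them the 2 h arrays hardly differed. CDK1, the mitotic kinase, had 11.05 and 10.96 at 2 h, then 10.78 and 10.68 at 4 h, then 11.44 and 11.27 at 12 h, a rise of 0.62 ± 0.14 (adjusted p = 0.0135) beside a 2 h difference of 0.08. TTK rose by 0.63 ± 0.17 beside 0.05 at 2 h, and MAD2L1 by 0.48 ± 0.13 beside 0.03. Members that were not called included CCNB1 (0.33 ± 0.13, adjusted p = 0.136), TOP2A (0.29 ± 0.12, adjusted p = 0.144), PLK1 (0.31 ± 0.17, adjusted p = 0.273) and MKI67 (0.30 ± 0.18, adjusted p = 0.331).

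A few genes of the G1/S transition and DNA replication rose. In 29 of 40 tested (72.5%, against 34.6% of all genes) both 12 h arrays lay above both 4 h arrays. By the limma calls 6 of the 40 rose and 0 fell, where 6.56% of all genes tested rose. The count was 0 without the control array of 4 h or the quercetin array of 12 h, 1 without the quercetin array of 4 h and 7 without the control array of 12 h. The list's 2 h median was 0.20, close to its 12 h minus 4 h median of 0.22. E2F8, a repressor that closes the S phase programme, had 8.16 and 8.09 at 4 h against 9.02 and 8.96 at 12 h, and was back at 7.76 and 7.83 at 24 h. Its difference of 0.86 ± 0.19 (adjusted p = 0.00917) stood beside 0.20 at 2 h, and the 12 h arrays were the highest of the 8. The clamp loader subunit RFC5 rose by 0.68 ± 0.19 (adjusted p = 0.0326), the replication initiator MCM10 by 0.63 ± 0.19 (adjusted p = 0.0486) and GINS1, a subunit of the replicative helicase, by 0.59 ± 0.15 (adjusted p = 0.024). MCM4, a subunit of the same helicase, rose by 0.60 ± 0.17 (adjusted p = 0.0361) on its brightest probe set, while the mean of its probe sets gave -0.03. RRM1, the large subunit of ribonucleotide reductase and the remaining called member, rose by 0.51 ± 0.14. GINS4 was not called, with 9.72 and 9.87 at 4 h, then 10.22 and 10.43 at 12 h, then 8.97 and 8.92 at 24 h (0.53 ± 0.17, adjusted p = 0.0644). In GINS1, GINS4, MCM4, MCM10, RFC5 and E2F8 both 24 h arrays were below both 12 h arrays, as in the mitotic genes CCNA2 (10.80 and 10.75 at 24 h) and ANLN (10.68 and 10.79) but not in ASPM, ECT2 or CDK1. The E2F letters TTTCGCGC or TTTCCCGC, on either strand, were in the windows of 13 of 35 listed genes (37.1%), against 2.56% of 27305 genes, and in 0 of the 4 called genes with a window.

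Some hypoxia-responsive and glycolytic genes rose. Of 35 tested, 8 rose (22.9%, against 6.56% of all genes) and 0 fell. The list median was 0.11 in control, 0.37 in quercetin and 0.27 for the 2 h difference. The medians over all genes tested were -0.0037 in control and 0.08 in quercetin, and the gap between the arms has no test. Left out singly, the arrays of control 4 h, quercetin 4 h, quercetin 12 h and control 12 h gave 7, 5, 4 and 14 calls. The called genes were mostly regulators rather than enzymes of the glycolytic chain: LDHA, the lactate dehydrogenase subunit, differed by 0.03 ± 0.09 (adjusted p = 0.891), and the glucose transporter gene SLC2A1 by 0.03 ± 0.17 (adjusted p = 0.943). VEGFA, the vascular growth factor, had 11.19 and 10.99 at 4 h against 11.39 and 11.78 at 12 h and was not called (adjusted p = 0.0767). These 3 were picked after their values were seen, as standard members of the response. HIF binds the core letters ACGTG, and these stood on either strand in the windows of 18 of 31 listed genes (58.1%) and 5 of 7 called ones, against 24.9% of 27305 genes and 31.1% of the genes tested. Windows of 2 called genes with the core in capitals are shown, for an oxygen sensor and a small ankyrin repeat protein:
EGLN1: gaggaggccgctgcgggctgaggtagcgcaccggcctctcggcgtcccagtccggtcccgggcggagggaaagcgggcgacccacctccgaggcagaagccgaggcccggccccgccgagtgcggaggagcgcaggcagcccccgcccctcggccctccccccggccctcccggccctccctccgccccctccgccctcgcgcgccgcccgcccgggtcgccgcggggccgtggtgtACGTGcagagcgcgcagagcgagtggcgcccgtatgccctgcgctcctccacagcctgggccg
ANKRD37: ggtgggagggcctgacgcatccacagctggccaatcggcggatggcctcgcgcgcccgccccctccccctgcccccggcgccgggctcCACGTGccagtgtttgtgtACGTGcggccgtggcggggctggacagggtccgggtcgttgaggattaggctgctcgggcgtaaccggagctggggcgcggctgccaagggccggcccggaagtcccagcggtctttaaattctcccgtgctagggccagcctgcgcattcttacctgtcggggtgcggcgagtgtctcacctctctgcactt
The EGLN1 window is chr1:231422238-231422537 on the minus strand and that of ANKRD37 chr4:185396591-185396890 on the plus strand. In ANKRD37 the first run of capitals holds the core on both strands and is also an E-box, the letters bound by clock factors and MYC.

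KDM3A, a histone demethylase induced in low oxygen, had levels of 9.77 (control) and 8.91 (quercetin) at 4 h, then 10.94 and 10.93 at 12 h, then 11.51 and 11.55 at 24 h. The groups were clearly apart, and the difference was 1.60 ± 0.20 (adjusted p = 0.000117), 3.03-fold, beside 0.70 at 2 h. EGLN1, the oxygen-sensing prolyl hydroxylase that marks HIF for destruction, had 10.21 and 9.93 at 4 h, then 11.20 and 11.34 at 12 h, then 11.62 and 11.69 at 24 h, a difference of 1.20 ± 0.17 (adjusted p = 0.000626). ANKRD37 had 7.21 and 6.94 at 2 h, then 8.56 and 7.76 at 4 h, then 9.32 and 9.22 at 12 h, and last 10.25 and 10.14 at 24 h. It was thus higher at each later time in both arms, with a 12 h minus 4 h difference of 1.11 ± 0.20 (adjusted p = 0.00355) and a 2 h difference of 0.27.

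PFKFB3 and PFKFB4 encode enzymes that make fructose 2,6-bisphosphate, the activator of glycolysis. PFKFB3 had 7.90 (control) and 6.63 (quercetin) at 4 h against 8.66 and 9.30 at 12 h, so it rose by 0.76 in control and by 2.67 in quercetin, a mean of 1.71 ± 0.29 (adjusted p = 0.00206). PFKFB4 had 9.67 and 8.69 at 4 h against 10.52 and 10.85 at 12 h, a mean of 1.502 ± 0.23 (adjusted p = 0.000869), but its second probe set differed by -0.03. PDK1, which turns pyruvate away from the mitochondria, had 10.50 and 9.93 at 4 h against 11.43 and 11.71 at 12 h, a mean of 1.36 ± 0.23 (adjusted p = 0.00206), but its 2 h difference was 1.10. In all 3 the quercetin array was the lower one at 4 h and the higher one at 12 h. Hexokinase 2 (HK2) showed the same order, with 10.59 and 9.75 at 4 h against 10.77 and 11.32 at 12 h, a mean of 0.87 ± 0.23 (adjusted p = 0.0249) of which control gave 0.18, and its second probe set gave -0.54. The glucose transporter gene SLC2A3, the remaining called member, rose by 0.64 ± 0.16 (adjusted p = 0.0215). With single arrays left out in turn the adjusted p of HK2 ranged from 0.00084 to 0.45.

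FOXO targets and genes of quiescence split, with 7 of 25 higher and 2 lower (36.0% called, against 7.53% of all genes). The list's calls, 9 in all, numbered 3 without the control array of 4 h, 2 without the quercetin array of 4 h and 5 without the quercetin array of 12 h. Cyclin G2 (CCNG2), an atypical cyclin of cells that leave the cycle and a classical FOXO target, had the largest rise of all genes tested. Its levels were 7.96 and 7.56 at 2 h, then 8.51 and 7.67 at 4 h, then 10.12 and 10.20 at 12 h, and last 11.49 and 11.01 at 24 h. The 12 h and 24 h arrays all lay above the earlier ones, and the 12 h minus 4 h difference was 2.07 ± 0.20 (adjusted p = 1.98e-05), 4.19-fold, beside 0.40 at 2 h. With array class as a term the difference was 2.08 ± 0.39. Its second probe set above the cutoff differed by 0.29. YPEL2, a small zinc-binding protein of the yippee family, had 8.08 and 7.99 at 4 h, then 9.44 and 9.26 at 12 h, then 10.64 and 10.36 at 24 h, a difference of 1.32 ± 0.18 (adjusted p = 0.000469) beside 0.22 at 2 h. A second YPEL2 probe set above the cutoff differed by 0.06. CITED2, a transcriptional co-regulator that competes with HIF for CBP and p300, rose by 0.59 in control and by 1.51 in quercetin, a mean of 1.05 ± 0.22 (adjusted p = 0.00648), while its second probe set gave -0.43.

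Other FOXO and quiescence genes were also called. The antiproliferative gene BTG1 rose by 0.75 ± 0.18 (adjusted p = 0.0146) and SESN1, a stress-induced inhibitor of mTORC1 signalling, by 0.71 ± 0.19 (adjusted p = 0.0245), with 2 h differences of 0.53 and 0.73. BCL6, a transcriptional repressor, rose by 0.52 ± 0.15 (adjusted p = 0.0371) beside 0.08 at 2 h, and the insulin receptor substrate IRS1 by 0.57 ± 0.17 (adjusted p = 0.0451). ERBB3, the receptor for neuregulins, ran the other way, with 12.39 and 12.24 at 2 h, then 12.03 and 11.85 at 4 h, then 11.46 and 11.28 at 12 h, and last 13.03 and 13.11 at 24 h. The 12 h arrays were the lowest of the 8, and the difference was -0.57 ± 0.13 (adjusted p = 0.0104) while the 2 h difference was 0.15. BCL6, IRS1 and ERBB3 were named after their values were seen. The insulin receptor INSR is the second member called lower, but it was so on 1 of its 4 probe sets above the cutoff (-1.08), and the others differed by -0.05, -0.22 and -0.16.

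Clock and fasting genes gave a few large changes and otherwise little. Of 14 clock genes, 3 rose (21.4%, against 6.56% of all genes) and 0 fell, and 1 was called without the control array of 4 h or the quercetin array of 12 h. RORA, a nuclear receptor that activates BMAL1, had 8.51 and 8.12 at 2 h, then 7.84 and 7.63 at 4 h, then 9.47 and 9.36 at 12 h, and last 10.38 and 10.14 at 24 h. It was the lowest at 4 h, and its difference of 1.68 ± 0.18 (adjusted p = 5.67e-05; 3.205-fold) was nearly equal in the arms, 1.64 and 1.73, while a dimmer probe set differed by 0.10. The repressor CRY1 had 8.33 and 8.22 at 4 h against 9.34 and 9.03 at 12 h, a difference of 0.91 ± 0.19 (adjusted p = 0.00644). BHLHE40, a repressor that also responds to hypoxia, rose by 0.16 in control and by 1.28 in quercetin, a mean of 0.72 ± 0.22 (adjusted p = 0.0495). With array class as a term BHLHE40 differed by 0.04 ± 0.38. At 2 h the differences were 0.39 for RORA, 0.48 for CRY1 and 0.63 for BHLHE40. NR1D2, a REV-ERB receptor that opposes RORA, had 8.52 and 9.23 at 4 h against 7.98 and 8.38 at 12 h and was not called (-0.70 ± 0.22, adjusted p = 0.051). A second NR1D2 probe set above the cutoff ran the other way, at 0.33. The list median was 0.02, and -0.03 with cyclic loess and -0.01 with quantile normalization, while its 2 h median was 0.34.

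PCK1, the rate-limiting enzyme of gluconeogenesis, was the sole called member of 15 gluconeogenic and fasting genes (6.67%, near the 7.53% of all genes). It had 8.69 and 7.42 at 2 h, then 7.70 and 7.39 at 4 h, then 9.03 and 9.05 at 12 h, and last 10.52 and 10.21 at 24 h. The difference was 1.49 ± 0.24 (adjusted p = 0.00131), 2.82-fold, but the 2 h arrays differed by 1.28, and with array class as a term it was 0.42 ± 0.36. PPARGC1A, the coactivator of the fasting response, had 8.25 and 8.78 at 4 h against 9.12 and 8.90 at 12 h (0.49 ± 0.21, adjusted p = 0.161), and FGF21, the fasting hormone of the liver, differed by -0.20 ± 0.19 (adjusted p = 0.541). The list's median of 0.02 was -0.09 with cyclic loess and -0.08 with quantile normalization.

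**Figure D4:**
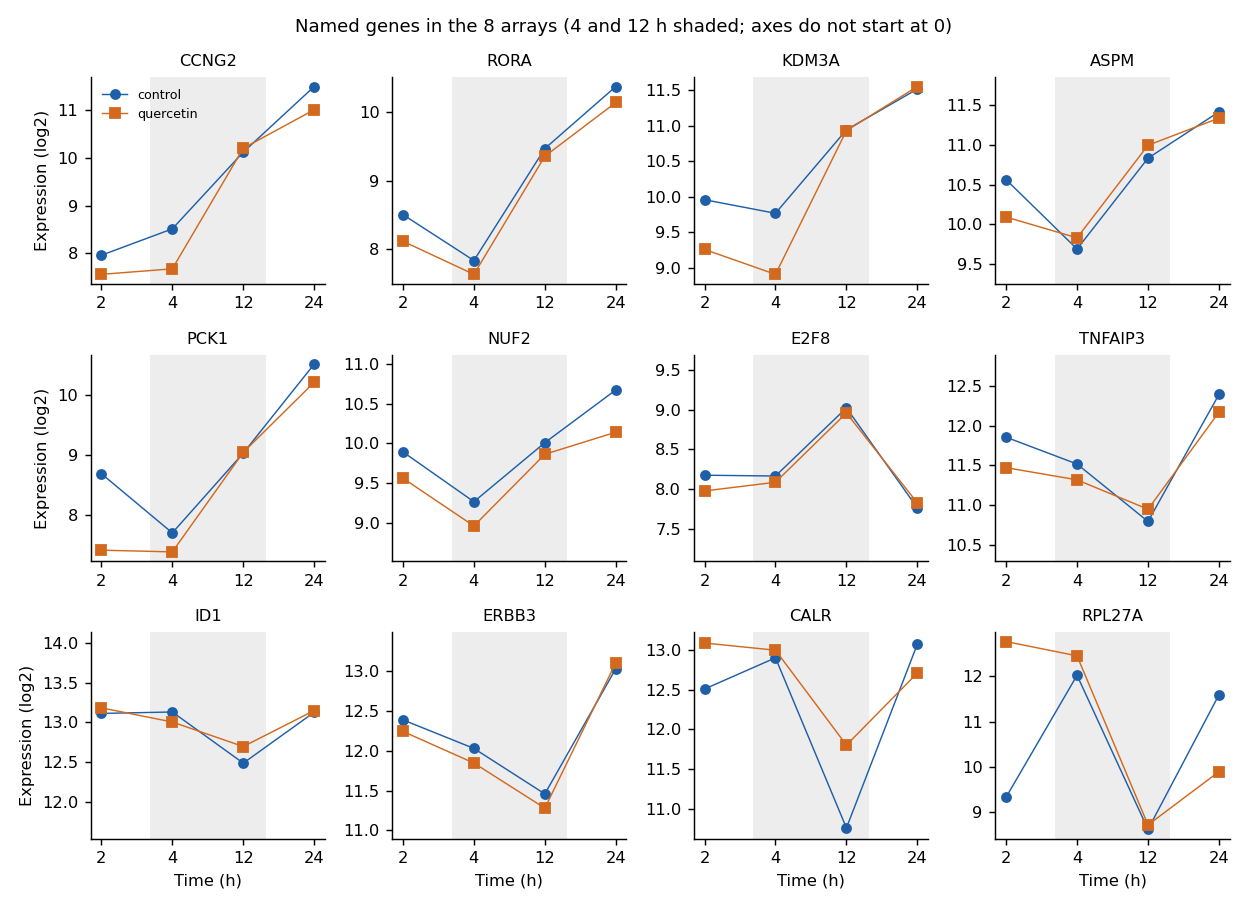
Log2 expression of 12 named genes in each of the 8 arrays by time in hours, control as circles and quercetin as squares, with 4 and 12 h shaded; each axis has its own range and does not start at 0. CCNG2, RORA, KDM3A and PCK1 are higher at 12 than at 4 h in both arms and higher still at 24 h, TNFAIP3, ID1 and ERBB3 are lowest at 12 h, and RPL27A follows the 18S rRNA signal.

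Among the 15 largest called rises, several genes belong to none of the lists above. SLCO4C1, an organic anion transporter, had 8.12 and 7.76 at 4 h, then 9.94 and 9.56 at 12 h, then 8.88 and 8.43 at 24 h, a difference of 1.81 ± 0.21 (adjusted p = 5.67e-05), with 1.09 at 2 h. FAM13A had 7.90 and 6.99 at 4 h, then 9.25 and 9.18 at 12 h, then 10.35 and 10.03 at 24 h, a difference of 1.77 ± 0.21 (adjusted p = 8.27e-05), with 0.16 at 2 h. The other FAM13A probe sets above the cutoff differed by 0.157, on one nearly as bright, and by 0.95. CHST9, a Golgi sulfotransferase, had 8.02 and 7.71 at 4 h against 9.63 and 9.15 at 12 h, a difference of 1.53 ± 0.19 (adjusted p = 0.000117), with 0.15 at 2 h. For FAM13A and CHST9 the 2 h difference was thus under 0.2, and neither 2 h array of CHST9 (8.21 and 8.06) came near the 12 h levels. In ETNK1, the ethanolamine kinase, the arms rose by 1.80 and 1.59 (mean 1.70 ± 0.19), and in BMPR2, a BMP receptor, by 1.74 and 1.63 (mean 1.69 ± 0.21), with 2 h differences of 0.65 and 0.997. The other BMPR2 probe sets above the cutoff differed by 0.25 and 0.0084, and BMPR2 was not called with the mean of probe sets (0.36). SMIM3, HERC4 and DEPDC7 rose by 1.56, 1.46 and 1.44, with 2 h differences of 0.67, 1.06 and 1.05.

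Some chaperone and proteasome genes rose at 12 h. Of 19 heat shock genes, 6 rose (31.6%, against 6.56% of all genes) and 0 fell. The heat shock calls were 0 without the control array of 4 h and 4 without the quercetin array of 12 h. HSPH1, a nucleotide exchange factor for HSP70, had 10.77 and 10.69 at 4 h against 11.53 and 11.85 at 12 h, a difference of 0.97 ± 0.16 (adjusted p = 0.002) beside 0.35 at 2 h. DNAJB4, an HSP40 co-chaperone, had 7.92 and 8.42 at 4 h against 9.75 and 9.37 at 12 h, a difference of 1.39 ± 0.22 (adjusted p = 0.00156) beside 0.46. DNAJB6 rose by 1.05 ± 0.18, the HSP90 cofactor CHORDC1 by 0.83 ± 0.16, DNAJA1 by 0.68 ± 0.11 and HSPA4 by 0.47 ± 0.14, and the groups did not overlap for any of them. Their 2 h differences were 0.66, 0.63, 0.32 and 0.36 in the same order. Of 30 proteasome genes 5 rose (16.7%, against 6.56% of all genes) and 0 fell. The largest rise was in the base ATPase PSMC6, with 10.73 and 10.68 at 4 h against 11.69 and 11.56 at 12 h, a difference of 0.91 ± 0.14 (adjusted p = 0.00108). The proteasome calls were 0 without the control array of 4 h, 1 without either quercetin array and 11 without the control array of 12 h. PSMC2, PSMD14, PSME4 and PSMA3 rose by 0.56, 0.54, 0.50 and 0.49. The 2 h differences were 0.36 for PSMC6, 0.20 for PSMC2, 0.40 for PSMD14 and 0.23 for PSMA3. The proteasome list's 2 h median was 0.16. In PSME4, an alternative activator of the proteasome, the 2 h arrays were level (11.28 and 11.29) and the 12 h arrays (11.22 and 11.59) above those of 4 h (10.85 and 10.96).

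Splicing factors had 12 of 43 higher and 1 lower (30.2% called, against 7.53% of all genes). That total was 0 without the control array of 4 h, 3 without the quercetin array of 4 h and 4 without the quercetin array of 12 h. The list's 2 h median was 0.24, as was its 12 h minus 4 h median. RBM25, a regulator of splice site choice, had 10.13 and 10.02 at 4 h against 11.06 and 11.13 at 12 h, a difference of 1.01 ± 0.18 (adjusted p = 0.00257). LUC7L, a U1 snRNP protein, rose by 0.96 ± 0.20, HNRNPDL by 0.71 ± 0.15 and the SR-related protein PNISR by 0.69 ± 0.17, though 2 of 4 further PNISR probe sets went the other way. Their 2 h differences were 0.66, 0.63 and 0.26, and that of RBM25 was 0.61. SRSF1, the archetypal SR protein, had 12.16 and 12.04 at 2 h, then 11.84 and 11.69 at 4 h, then 12.38 and 12.49 at 12 h, a difference of 0.67 ± 0.13 (adjusted p = 0.00458) beside 0.13 at 2 h. CLK1, the kinase that phosphorylates SR proteins, had 9.65 and 10.16 at 2 h, then 9.51 and 9.21 at 4 h and then 10.23 and 9.89 at 12 h. It rose by 0.70 ± 0.19 (adjusted p = 0.0317) although its 2 h difference ran the opposite way, at -0.50. The member called lower was HNRNPH1, an RNA-binding protein, which fell by 0.38 ± 0.09 (adjusted p = 0.0155), named here after its values were seen.

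Chromatin regulators, zinc fingers, the respiratory chain and sterol synthesis contributed single genes. Of 28 chromatin genes 4 rose (14.3%, against 6.56% of all genes), with 0 calls without the control array of 4 h, 1 without the quercetin array of 12 h and 2 without the quercetin array of 4 h. Among them were the demethylase KDM7A, from 7.51 and 7.48 to 8.61 and 8.62 (1.12 ± 0.20, adjusted p = 0.00299), and ARID4B, from 9.002 and 8.88 to 10.14 and 10.09 (1.18 ± 0.24, adjusted p = 0.00613). For ARID4B, a subunit of the SIN3A complex, the 2 h difference was larger, at 1.35, and a second probe set gave -0.51. The list median of 0.08 was -0.02 with cyclic loess. Of 62 KRAB zinc fingers 2 rose (3.23%, against 6.56% of all genes), ZNF670 by 1.26 ± 0.23 and ZNF431 by 0.96 ± 0.26, both more in control. Respiratory chain genes had 3 of 49 called higher (6.12%, near the 6.56% of all genes), and 0, 1, 1 and 7 calls without the arrays of control 4 h, quercetin 4 h, quercetin 12 h and control 12 h. The called genes were NDUFA5 of complex I at 10.22 and 10.03 at 4 h against 11.11 and 10.79 at 12 h (0.83 ± 0.16, adjusted p = 0.00496), then CYC1 (0.49 ± 0.14) and SDHC (0.49 ± 0.14). In 33 of the 49 (67.3%, against 34.6% of all genes) both 12 h arrays lay above both 4 h arrays. Of 18 cholesterol synthesis genes (5.56% called, near the background) ACAT2 alone rose (0.46 ± 0.13, adjusted p = 0.0401). That list had 3 calls without the control array of 12 h and 0 without any one of the other 3 arrays of 4 and 12 h. SQLE, squalene epoxidase, had 11.99 and 11.44 at 4 h against 11.98 and 12.33 at 12 h and was not called (0.44 ± 0.18, adjusted p = 0.147).

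The genes called lower at 12 h included ID1, FST and TNFAIP3, which act in BMP, activin and NF-kB signalling. For these genes the 2 h arrays gave no like difference. ID1, an inhibitor of differentiation and a direct BMP target, had 13.11 and 13.18 at 2 h, then 13.13 and 13.01 at 4 h, then 12.49 and 12.70 at 12 h, and last 13.13 and 13.15 at 24 h. The 12 h arrays were the lowest of the 8, and the difference was -0.48 ± 0.11 (adjusted p = 0.0145) beside -0.07 at 2 h. FST, which encodes follistatin, an extracellular trap of activins, had 11.56 and 11.46 at 2 h, then 10.84 and 11.02 at 4 h, then 10.11 and 10.55 at 12 h, and last 12.40 and 12.20 at 24 h, a difference of -0.60 ± 0.16 (adjusted p = 0.0264). These were the 2 called members of 18 TGF-beta and BMP genes tested (11.1%, against 7.53% of all genes called and 0.97% called lower). Neither was called without the control array of 4 h. Of the 18 differences 7 were positive and 11 negative. BMP4, the ligand, had 10.52 and 10.39 at 4 h against 9.90 and 10.15 at 12 h and was not called (-0.43 ± 0.16, adjusted p = 0.106), nor was the inhibitory SMAD6 (-0.36 ± 0.20, adjusted p = 0.296). The listed members SKI and SKIL ran the other way, at 0.465 ± 0.22 and 0.40 ± 0.20, and were not called. Their 2 h differences were 0.77 and 0.90.

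TNFAIP3, which encodes the NF-kB inhibitor A20, had 11.85 and 11.47 at 2 h, then 11.52 and 11.32 at 4 h, then 10.79 and 10.95 at 12 h, and last 12.39 and 12.17 at 24 h. The 12 h arrays were again the lowest, with a difference of -0.55 ± 0.15 (adjusted p = 0.0273) against 0.38 at 2 h. NFKBIA, the inhibitor IkB-alpha, had 13.10 and 13.12 at 4 h against 12.50 and 12.88 at 12 h, a difference of -0.42 ± 0.13 that was not called (adjusted p = 0.0577), also with a positive 2 h difference, 0.39. Of the 15 NF-kB and inflammation genes tested, 1 was called higher and 2 lower (20.0% called, against 7.53% of all genes). In that list 0 were called without either 4 h array. The one called higher, TNIP1, a partner of A20, rose by 0.61 ± 0.18 on its brightest probe set and had -0.31 on the other. The second lower call, SOD2, is given with the 18S signal. MYC, an immediate early gene, had 11.54 and 11.69 at 4 h against 10.87 and 11.37 at 12 h and was not called (-0.49 ± 0.16, adjusted p = 0.0559). Of 23 immediate early genes tested, 11 had positive and 12 negative differences. The sole call was the rise of BTG1 given above (4.35% called, against 7.53% of all genes). MAFF and FOSL2 differed by 0.60 and 0.51 and were not called. Of 38 ribosome biogenesis genes 2 were called (5.26%, against 7.53% of all genes). WDR43, a nucleolar protein, was lower, with 10.63 and 11.14 at 4 h against 9.84 and 10.04 at 12 h (-0.95 ± 0.19, adjusted p = 0.0063), and RRN3, an initiation factor of RNA polymerase I, higher by 0.68 ± 0.21 (adjusted p = 0.0489).

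The 4 largest falls lay on probe sets that were high and low in much the same arrays as the ribosomal RNA signal. RPL27A, a ribosomal protein gene, had 9.33 and 12.77 at 2 h, then 12.03 and 12.46 at 4 h, then 8.61 and 8.71 at 12 h, and last 11.59 and 9.89 at 24 h. The 18S probe sets had 8.57 and 12.01 at 2 h, and 9.82 with 9.16 at 24 h, so both were low in the 2 h control and in the 12 h arrays. The RPL27A difference was -3.58 ± 0.59 (adjusted p = 0.00188) beside -3.45 at 2 h, and with array class as a term it was 0.26 ± 0.57. RPLP2, another ribosomal protein gene, had -3.22 beside -3.42 at 2 h, and RNA45SN5, a ribosomal RNA precursor, -2.28 beside -1.54. PEG3-AS1 (-2.47), H3-3A (-1.75), MIF-AS1 (-1.69), EME1 (-1.53), SOD2 (-1.39), APOC2 (-1.25), TPPP (-0.99) and FAM86C1P (-0.95) also had 2 h differences of the same sign, from -0.41 to -2.30. The brightest probe set had the lower value for RNA45SN5 (-2.28 against -1.30 on its other probe set above the cutoff), for EME1 (-1.53 and -0.49) and for B4GALT1, with -1.95 there and -0.32 and -0.20 on 2 others. RPL38, a ribosomal protein gene, differed by -0.12 on its brightest probe set and by -2.69 and -2.61 on 2 others above the cutoff. Of 47 ribosomal proteins tested on the brightest probe set, 0 rose and RPL27A and RPLP2 were the 2 that fell. They are 4.26% of the list, against 7.53% of all genes called and 0.97% called lower. The list median of -0.03 was 0.05 with median centring and 0.01 with quantile normalization.

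CALR encodes calreticulin, a calcium-binding chaperone of the endoplasmic reticulum. Its brightest probe set had 12.51 and 13.09 at 2 h, then 12.90 and 12.996 at 4 h, then 10.76 and 11.80 at 12 h, and last 13.07 and 12.71 at 24 h, a difference of -1.67 ± 0.20 (adjusted p = 8.27e-05). The 2 h difference was -0.58, and with array class as a term it was -1.35 ± 0.38. A second probe set gave -1.21, but the probe set specific to the gene gave 0.70, so the probe sets of this gene disagree in direction. Of 27 genes of the endoplasmic reticulum stress response tested, 3 were called (11.1%, against 7.53% of all genes) and 24 were not. The kinase EIF2AK3 rose by 0.82 ± 0.21 and the co-chaperone DNAJB11 by 0.53 ± 0.15, and CALR fell. HYOU1 differed by 0.34 ± 0.15 (adjusted p = 0.169) and DERL3, a factor of protein degradation at that membrane, by -0.58 ± 0.19 (adjusted p = 0.0639). That list's median of 0.15 was -0.01 with cyclic loess.

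The list of plasma protein genes and the reference genes ACTB and GAPDH held no call. Of 58 genes for plasma proteins 0 were called by limma at 12 against 4 h, and 4 were called without the quercetin array of 12 h. The apolipoprotein gene APOC2, which fell (above), is not on that list. Fibrinogen alpha (FGA) had 13.83 and 13.67 at 4 h against 13.46 and 13.47 at 12 h (-0.28 ± 0.09, adjusted p = 0.069), antithrombin (SERPINC1) 10.77 and 10.81 against 11.15 and 11.10 (0.34 ± 0.15, adjusted p = 0.174), and coagulation factor V (F5) 11.63 and 11.31 against 10.31 and 11.67 (-0.48 ± 0.24, adjusted p = 0.226). The list median was -0.06, and 0.02 with median centring. ACTB had 14.47 and 14.53 at 4 h against 14.32 and 14.59 at 12 h, and GAPDH 14.80 and 14.80 against 14.70 and 14.94. Both sets of arrays overlapped, with differences of -0.05 ± 0.09 and 0.02 ± 0.08.

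The arms did not always move by the same amount. The 5 called genes with the widest gap between them were PFKFB3 and HK2, given above, with TMCC1, CYP1A1 and PEG3-AS1. TMCC1, a membrane protein of the endoplasmic reticulum, had 11.85 (control) and 10.85 (quercetin) at 4 h against 11.99 and 12.48 at 12 h, so it was 0.14 higher in control and 1.63 higher in quercetin. CYP1A1, a cytochrome P450 under the aryl hydrocarbon receptor, had 10.68 and 10.91 at 4 h against 8.58 and 10.44 at 12 h, so it fell by 2.10 in control and by 0.47 in quercetin. PEG3-AS1 fell by 3.28 in control and by 1.66 in quercetin. At 2 h CYP1A1 had 9.52 (control) and 10.90 (quercetin), a difference of -1.37. Its mean 12 h minus 4 h difference was -1.28. The 2 h differences of PEG3-AS1 and TMCC1 were -2.30 and 0.15, beside means of -2.47 and 0.89. Each arm is 1 array against 1 array, so the gaps between the arms have no test.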

How the data were processed

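The deposited table holds RMA expression on a log2 scale, per the submitters' processing notes, for 54675 probe sets on 8 arrays. The version and settings of RMA and its probe description were not given in the sources used here. Intensities before RMA were not used.

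In the platform annotation 41091 probe sets had 1 symbol (41037 updated through Entrez), 1801 had several and 11721 were not listed, besides 62 Affymetrix controls. Each of 19775 genes was represented by its brightest probe set over the 8 arrays. Testing covered the 13298 genes whose mean exceeded 7.43, the median over probe sets, and omitted 6477 dimmer ones.

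The test was limma 3.58.1 in R 4.3.3 (lmFit, eBayes with a mean-variance trend) on all 8 arrays with time and treatment, 3 residual degrees of freedom and Benjamini-Hochberg adjustment over all genes at 0.05. The script was tested on simulated data. Errors are SEs of the fit. Lists were described by counts and medians without a test. Members and lists were chosen with earlier results of these data known, and the ACGTG search was added after the data were seen. Named were the 15 largest called rises and falls, up to 6 members of each described list by size, ACTB, GAPDH and the 5 called genes whose arms differed most. Alternatives changed the filter, the probe set rule, the normalization, the moderation, the arrays, the block, array class and the threshold. The length of the starvation before treatment is given differently within the labels and was not used.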

Additional observations from a re-analysis of the deposited data

How the results depend on the processing

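The count of calls (1001, with 872 higher and 129 lower) depended on the settings. It was 230 (203 and 27) with probe sets averaged per gene, 596 (531 and 65) without the variance trend, 1842 (1476 and 366) with the 4 arrays of 4 and 12 h alone, 0 (0 and 0) with array class as a term, 218 (201 and 17) at an adjusted p of 0.01 and 1697 (1383 and 314) at 0.10. Higher calls were 513 with cyclic loess. Lower calls were 84 without the filter, 69 with a filter at the 75th percentile, 83 with median centring, 194 with cyclic loess, 293 with quantile normalization and 206 without the 2 h arrays. Leaving out 1 array at a time gave 37 to 1046 calls, 29 to 987 higher and 8 to 98 lower. The 54 genes changed at least 2-fold in both arms became 25 with the mean of probe sets and 562 at 1.5-fold. Among named called genes, 7 changed sign with array class as a term: RPL27A (0.26), RPLP2 (0.63), H3-3A (0.85), MIF-AS1 (0.37), SOD2 (0.40), ARID4B (-0.063) and RRN3 (-0.15). CALR (0.70), MCM4 (-0.18) and TNIP1 (-0.31) did so on gene-specific probe sets, and MCM4 (-0.026) with the mean of probe sets. Of 86 named called genes, 62 kept their call with cyclic loess, 72 without the treatment block and 25 without the control array of 4 h. The cause was not tested. No paired analysis was possible because each group has a single replicate number, 1, and the treatment was the block of the fit. Precision is limited by having 8 arrays.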

Other observations

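Genes beyond the groups described above, picked here after their values were seen, give a few further changes between 4 and 12 h. Of 25 p53 targets tested, 5 rose (20.0%, against 6.56% of all genes) and 0 fell. The list median of 0.17 was 0.0035 with cyclic loess and 0.04 with array class as a term. RRM2B, the p53-inducible subunit of ribonucleotide reductase, rose by 0.87 ± 0.18 (limma adjusted p = 0.00731), the phosphatase PPM1D by 0.79 ± 0.19, SPATA18 by 0.78 ± 0.23, TP53INP1 by 0.73 ± 0.19 and SESN1 by 0.71 ± 0.19. CDKN1A and MDM2, the best-known targets of p53, differed by -0.20 ± 0.17 and 0.01 ± 0.16 and were not called. The 2 h differences were 0.75 for PPM1D, 0.65 for RRM2B and 0.17 for SPATA18.

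CCN2, a secreted target of YAP and TGF-beta signalling, had 11.90 and 11.44 at 2 h, then 10.98 and 11.39 at 4 h, then 10.49 and 10.39 at 12 h, and last 12.23 and 12.54 at 24 h. The 12 h arrays were the lowest of the 8, with a difference of -0.74 ± 0.17 (adjusted p = 0.0142) against 0.46 at 2 h. DUSP6, a phosphatase that closes the ERK pathway, had 8.76 and 8.55 at 4 h, then 9.09 and 9.53 at 12 h, then 11.23 and 11.59 at 24 h, a difference of 0.66 ± 0.19 (adjusted p = 0.041). PROX1, a transcription factor of the liver lineage, fell by 0.62 ± 0.15 (adjusted p = 0.0194), by 1.03 in control and by 0.21 in quercetin, and its 2 h difference was 0.02. GSTA1, a glutathione transferase, rose by 0.64 ± 0.16 (adjusted p = 0.019) although its 2 h difference was -0.36. The nuclear RNA MALAT1 had 13.94 and 13.70 at 4 h against 12.79 and 13.14 at 12 h, a difference of -0.85 ± 0.17 (adjusted p = 0.00615), and its 2 h difference was -0.71. All 7 tested genes of the mitochondrial genome had negative differences, from -0.43 to -0.09, and 0 were called.

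The called gene with the largest rise among those whose 2 h difference ran the opposite way was GKAP1, with 8.02 and 8.08 at 2 h, then 7.93 and 8.04 at 4 h, then 9.27 and 8.99 at 12 h, and last 9.89 and 9.46 at 24 h (1.15 ± 0.20, adjusted p = 0.00238).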
